A study of Homo sapiens with 2 samples.

Results

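The keratin and vimentin genes are described here in BT549 cells, a mesenchymal line of triple-negative breast cancer. The set holds 10 genes, KRT7, KRT8, KRT10, KRT14, KRT18, KRT33B, KRT34, KRT80, KRT81 and VIM, out of 58735 in the deposited tables. It was given as a list of symbols, chosen with the levels and ratios of these 2 libraries known, so its values are a description and carry no test. Both cultures had received Wnt3a, a Wnt ligand, for 2 h. One carried a scrambled control hairpin and the other, labelled shSIK2, one that targets the salt-inducible kinase SIK2, and each was sequenced as 1 library. The labels do not say whether the knockdown line was 1 clone or a pool. Gene-assigned reads recovered from the tables came to 18019225 for scrambled and 16347399 for shSIK2. SIK2 had 1312 and 599 reads, 7.80 and 3.56 FPKM, and was 2.19-fold lower in shSIK2 cells (1.99 to 2.42).

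Intermediate filaments are rope-like polymers of the cytoplasm and the nucleus that give cells mechanical strength. Keratins form them in epithelial cells, always as pairs of an acidic type I and a basic type II chain, whereas vimentin, the filament protein of mesenchymal cells, polymerises alone. KRT8 and KRT18 are the usual pair of simple epithelia such as the breast lumen, KRT14 belongs to basal cells, KRT10 to the upper epidermis, and KRT33B, KRT34 and KRT81 to the hair shaft. Loss of keratins and gain of vimentin is a widely used sign of epithelial-mesenchymal transition.

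The deposited FPKM values are reads divided by exon length and by 1 divisor shared by both libraries, and a gene counted as measured where its higher value reached 1 FPKM. Of the 10 genes, 9 were measured and 5 of them (VIM, KRT80, KRT34, KRT18 and KRT10) reached 1 FPKM in both libraries. KRT33B, KRT14 and KRT7 reached it in scrambled cells alone, KRT81 in shSIK2 cells alone, and KRT8 in neither. A gene that passes in 1 library only had to differ to some degree, so counts over the measured members support nothing. Folds are ratios of reads, and the range in brackets is the exact 95% counting interval. Neither is adjusted for the difference in read totals, so a small fold can shrink or change direction at equal totals. With 1 library per group there is no replicate check.

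VIM stood far above every keratin in both libraries, at 260.3 FPKM in scrambled cells and 283.3 in shSIK2 cells. KRT80, a type II keratin of several epithelia, came next among the members at 57.6 and 29.99 FPKM. KRT34 stood at 26.8 and 16.7 FPKM and KRT10 at 11.7 and 6.495 FPKM. These 3 keratins were all lower in shSIK2 cells. KRT18 stood at 2.14 FPKM in scrambled cells and 19.3 in shSIK2 cells, below KRT33B in the first and above KRT34 in the second. The remaining members lay at or below 3.48 FPKM in both libraries.

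**Figure D1:**
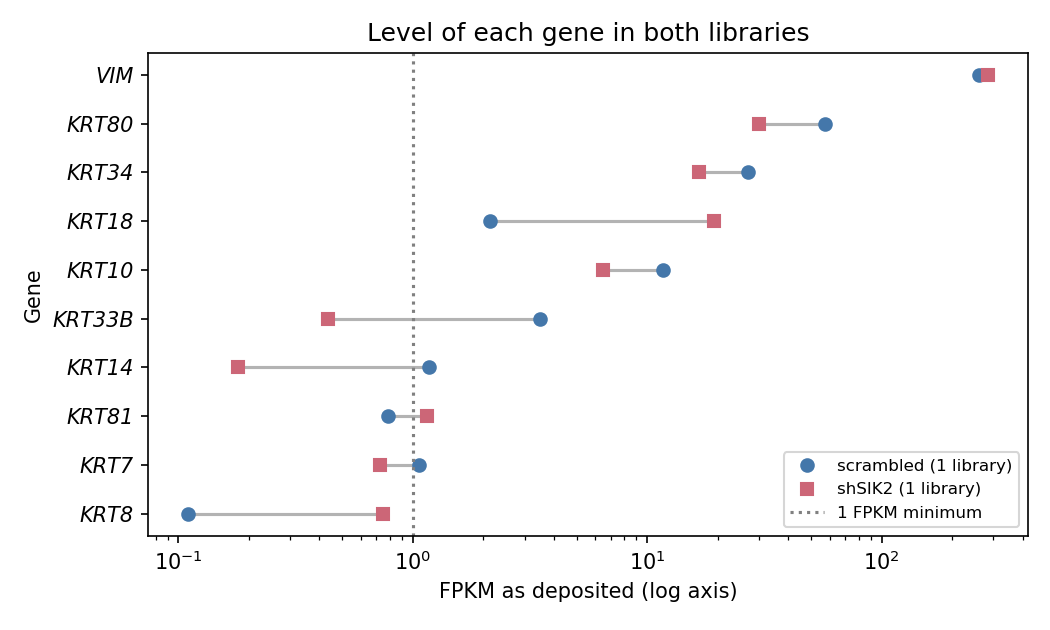
Level of the 10 genes in FPKM as deposited (log axis), with 1 point per library (circles scrambled, squares shSIK2) and a dotted line at the minimum of 1 FPKM. VIM is highest in both libraries at 260.3 and 283.3 FPKM, and KRT18 shows the widest rise, from 2.14 to 19.3 FPKM.

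KRT18, the type I keratin of simple epithelia (ENSG00000111057, GRCh38 chromosome 12, 52948871 to 52952901), was higher in shSIK2 cells. It had 118 reads in scrambled cells and 1064 in shSIK2 cells, a 9.02-fold difference (7.45 to 11.0). Its log2 ratio of FPKM plus 0.1 was 3.11, and 1.36% of the 12866 measured genes had a ratio at least as high. KRT8, its type II partner (ENSG00000170421, chromosome 12, 52897187 to 52949954), moved the same way at a much lower level. It had 13 and 88 reads, 0.110 and 0.745 FPKM, a 6.77-fold difference (3.76 to 13.2). The KRT18 level was 19.4 times that of KRT8 in scrambled cells and 25.9 times in shSIK2 cells. KRT8 FPKM is divided by 6881 exonic bases pooled over 17 annotated transcripts. The coding sequence of its principal transcript takes up 1449 of them, which lowers its FPKM. KRT18 FPKM is lowered in the same way, with 3218 exonic bases over 7 transcripts and 1290 coding bases. Exons of both genes overlap on opposite strands over 525 bases, 7.63% of those of KRT8 and 16.3% of those of KRT18. The sources used here do not say whether counting used strand, and the part of this overlap in the KRT8 difference was not tested.

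Many pseudogenes copy this pair, and the counts on them bear on how far each ratio can be read. For KRT18, 67 annotated pseudogenes held 13 and 26 reads in all, scrambled first, and adding them to KRT18 left the ratio at 8.32 (6.94 to 10.1). For KRT8, 50 pseudogenes held 152 and 158 reads, more than KRT8 itself, and adding them brought the ratio down to 1.49 (1.22 to 1.83). Most of those reads lay on KRT8P12, a transcribed pseudogene of chromosome 3, with 107 and 115 reads, a 1.07-fold difference (0.82 to 1.41). The KRT8P12 sequence aligned with 95.6% of the KRT8 coding sequence at 90.7% identity, with 129 mismatched bases. The sum for KRT8 thus pools its own reads with those counted on separate loci. Whether reads were misplaced between them was not tested. Of the 50-base stretches of KRT8P12, 6.11% occurred in any other annotated transcript, most often in KPNA4. For KRT18 that share was 24.5%, with 12.7% found in KRT8. For KRT8 it was 16.1%, with 5.94% found in KRT18.

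KRT33B, a type I hair keratin (ENSG00000131738, chromosome 17, 41363494 to 41369800), was lower in shSIK2 cells. It had 96 reads in scrambled cells and 12 in shSIK2 cells, 3.48 and 0.435 FPKM, an 8-fold difference (4.38 to 16.02). Its neighbour KRT34, also a type I hair keratin (ENSG00000131737, chromosome 17, 41377650 to 41382403), had 806 and 501 reads and was 1.61-fold lower (1.44 to 1.80). Their aligned coding sequences were 93.1% identical, and 27.7% of the 50-base stretches of KRT33B and 11.4% of those of KRT34 occurred in another annotated transcript. KRT33A, which is 95.9% identical to KRT33B over the aligned coding bases, had 0 reads in both libraries, where a count of 0 allows up to 3. KRT81, a type II hair keratin (ENSG00000205426, chromosome 12, 52285913 to 52291534), had 26 and 38 reads, 0.785 and 1.15 FPKM. Its 1.46-fold difference had an interval that includes 1 (0.86 to 2.51), so no difference was detectable at this depth.

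KRT81 is hard to count apart from its neighbour KRT86, another hair keratin, with 95.3% identity over the aligned coding bases. Of its 50-base stretches, 43.7% occurred in another annotated transcript, most in KRT86, which had 8 and 9 reads.

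KRT14 and KRT10 are type I keratins of the epidermis. KRT14 (ENSG00000186847, chromosome 17, 41582279 to 41586921), which pairs with KRT5 in basal cells, had 46 and 7 reads, 1.18 and 0.179 FPKM, a 6.57-fold difference (2.95 to 17.3). Its relative KRT16, a keratin of stressed epidermis named here after its values were seen, had 24 and 8 reads and was 3-fold lower (1.30 to 7.72) without reaching the minimum. The 2 coding sequences were 91.6% identical where they aligned, and 16.8% of the 50-base stretches of KRT14 occurred in another annotated transcript. KRT10 (ENSG00000186395, chromosome 17, 40818117 to 40822595), the type I keratin of differentiating epidermis, had 430 and 239 reads and was 1.80-fold lower (1.53 to 2.12). KRT10, KRT14, KRT33B and KRT34 lie in the type I keratin cluster of chromosome 17, and KRT18 is the type I keratin that lies outside it, beside KRT8 in the chromosome 12 cluster.

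Promoter sequence was at hand for 5 of the 10 genes, from RefSeq on GRCh38.p14. The 3 chromosome 17 keratins among them, KRT10, KRT33B and KRT34, each held 1 TATA box (TATAAA, searched on both strands), starting 29, 28 and 31 bases before the annotated start. That motif was present in 10.7% of the 35116 promoters of the same length, 250 bases. VIM held no TATA box and 1 GC box (GGGCGG, in 42.6% of promoters) that starts 46 bases before the start. KRT33B also held 1 E-box (CAGGTG, in 17.5%), the motif bound by SNAI and ZEB repressors, 122 bases before the start. None of the 5 held the AP-1 motif TGANTCA (in 6.57% of promoters). The RefSeq start of KRT8 lies 23373 bases from that of its principal GENCODE transcript, so its window, which held 0 of the 4 motifs, is not printed. The RefSeq start of KRT34 lies 97 bases inside the first GENCODE exon, and its window is not printed either. The 250 bases before the start are given 5′ to 3′ on the strand of each gene, with motif matches in capitals, to set 2 keratin promoters beside that of VIM: KRT10 chr17:40822615-40822864 (minus), KRT33B chr17:41369814-41370063 (minus) and VIM chr10:17227991-17228240 (plus).
KRT10: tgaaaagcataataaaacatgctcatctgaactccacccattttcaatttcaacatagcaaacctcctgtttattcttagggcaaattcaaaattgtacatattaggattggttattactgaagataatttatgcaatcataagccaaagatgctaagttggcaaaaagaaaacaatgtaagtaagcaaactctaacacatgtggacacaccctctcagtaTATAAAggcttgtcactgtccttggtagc
KRT33B: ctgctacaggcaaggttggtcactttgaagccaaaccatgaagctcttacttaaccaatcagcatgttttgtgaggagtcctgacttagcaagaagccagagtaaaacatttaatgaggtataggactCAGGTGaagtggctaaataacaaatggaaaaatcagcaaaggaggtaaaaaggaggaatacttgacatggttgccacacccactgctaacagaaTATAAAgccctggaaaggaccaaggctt
VIM: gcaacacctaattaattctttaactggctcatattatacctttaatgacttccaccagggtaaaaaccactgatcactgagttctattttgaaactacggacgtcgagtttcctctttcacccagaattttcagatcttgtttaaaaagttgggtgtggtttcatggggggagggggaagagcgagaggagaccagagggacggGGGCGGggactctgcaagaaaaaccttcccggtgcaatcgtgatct

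KRT80 (ENSG00000167767, chromosome 12, 52168996 to 52192000), the most abundant keratin, had 4303 reads in scrambled cells and 2239 in shSIK2 cells. It was 1.92-fold lower (1.83 to 2.02), with a log2 ratio of -0.94 that lies just short of 2-fold, and 9.49% of measured genes were at least as low. Its reads are the best separated of the members, since 0.36% of its 50-base stretches occurred in another annotated transcript and no exonic base overlapped another gene. KRT7, a type II keratin of glandular epithelia (ENSG00000135480, chromosome 12, 52232520 to 52252186), had 75 and 51 reads. It was 1.47-fold lower with an interval that nearly reaches 1 as deposited (1.02 to 2.14) and includes 1 at equal totals. Its log2 ratio was -0.50 as deposited and -0.37 at equal totals.

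VIM (ENSG00000026025, chromosome 10, 17228259 to 17237593) had 23041 reads in scrambled cells and 25082 in shSIK2 cells, a 1.09-fold difference (1.07 to 1.11). Its log2 ratio was 0.12 as deposited and 0.26 at equal totals, and 37.6% of measured genes were at least as high. Exons of VIM overlap genes on the opposite strand over 1260 bases, 24.4% of the total. One of those genes, VIM-AS1, had 18 and 20 reads.

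**Figure D2:**
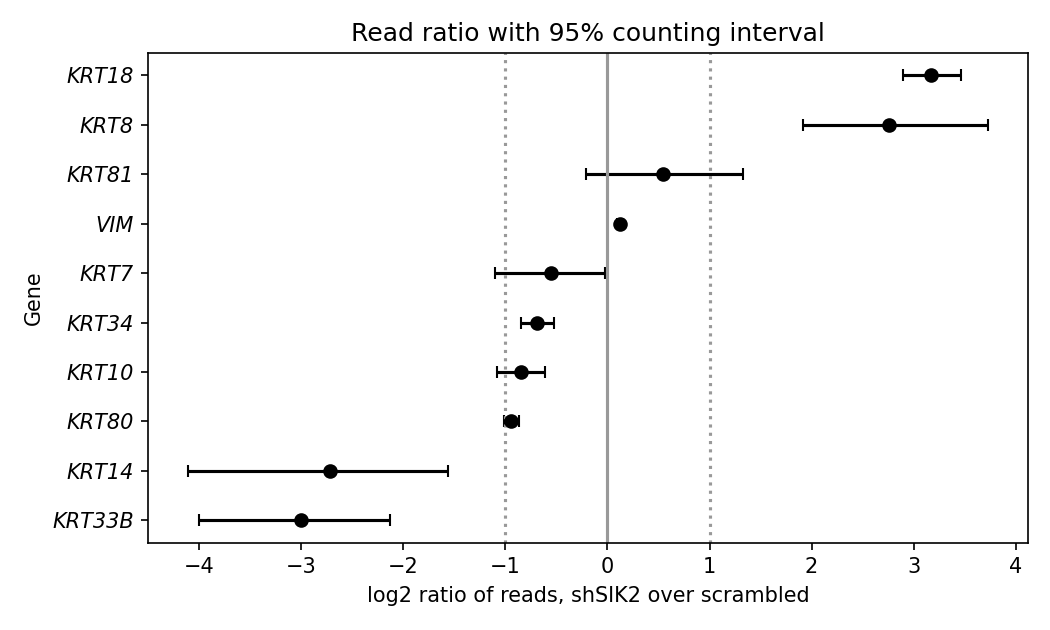
Log2 ratio of reads, shSIK2 over scrambled, for each of the 10 genes, with the exact 95% counting interval as bars and dotted lines at 2-fold. KRT18 and KRT8 lie above 2-fold (9.02-fold and 6.77-fold), KRT14 and KRT33B below it (6.57-fold and 8-fold lower), and the interval of KRT81 spans 0.

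Of the 9 measured members, 1 (KRT18) was at least 2-fold higher in shSIK2 cells, where 11.0% of all 12866 measured genes were. Of the same 9, 2 (KRT33B and KRT14) were at least 2-fold lower, where 8.28% of all measured genes were, and 6 lay between. Nothing is read from these counts, because the members were chosen on this contrast. The median log2 ratio of the 9 was -0.68, beside -0.11 for all measured genes. At equal totals it was -0.54, beside 0.03 for all measured genes, and the counts of 1 and 2 stood, with backgrounds of 13.4% and 6.04%. KRT14 rests on few reads and fell short of 2-fold with a pseudocount of 1 FPKM (log2 ratio -0.88).

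**Figure D3:**
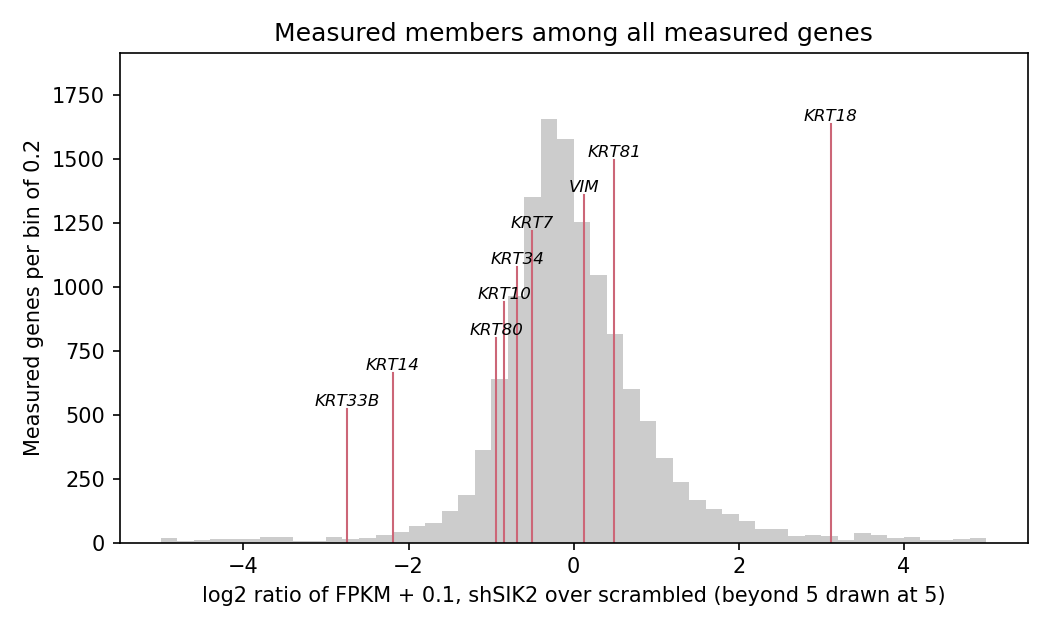
Histogram of the log2 ratio of FPKM plus 0.1 for the 12866 measured genes, in bins of 0.2, with the 9 measured members as lines whose heights only separate the names. KRT18 at 3.11 and KRT33B at -2.74 lie in the tails, and VIM at 0.12 lies near the middle.

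Summed over all 54 keratin genes, keratin transcripts stood at 106.7 FPKM in scrambled cells and 76.8 in shSIK2 cells. VIM was 2.44 times the keratin sum in scrambled cells and 3.69 times in shSIK2 cells. Type II keratins summed to 60.1 and 32.9 FPKM, and KRT80 made up 95.9% and 91.0% of them. Type I keratins summed to 46.6 and 43.8 FPKM, a small fall as deposited that turns into a small rise, to 48.3 FPKM, at equal totals. Without KRT18 the type I sum went from 44.4 to 24.5 FPKM, 0.55 times the scrambled value, which is also the ratio of the type II sum. The share of KRT18 in all keratin transcripts was 2.00% in scrambled cells and 25.1% in shSIK2 cells, while that of KRT80 was 54.02% and 39.1%. Since keratin chains pair one to one, the ratio of type I to type II transcripts is of interest. It was 0.78 in scrambled cells and 1.33 in shSIK2 cells, and its level depends on the pooled exon length of each gene.

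**Figure D4:**
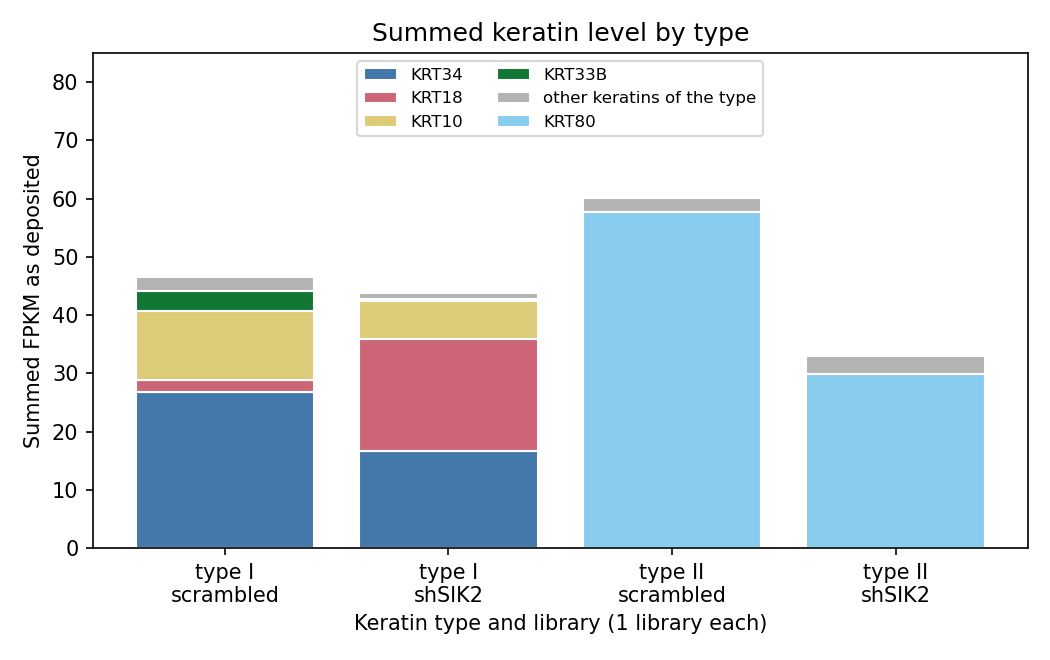
Summed FPKM of type I keratins (left bars) and type II keratins (right bars) in the scrambled and shSIK2 libraries, 1 library each, stacked by gene. The type II sum falls from 60.1 to 32.9 FPKM with KRT80, and the type I sum goes from 46.6 to 43.8 FPKM, with a larger KRT18 part (2.14 to 19.3 FPKM) and smaller KRT34, KRT10 and KRT33B parts.

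The other 45 keratin genes were almost silent. Of these, 31 had no read in either library, and the other 14 shared 82 reads in scrambled cells and 47 in shSIK2 cells. By its higher library, the highest was KRT16 at 0.565 FPKM in scrambled cells, beside 0.745 FPKM in shSIK2 cells for KRT8, the lowest member on that measure. KRT5, the partner of KRT14 in basal cells, had 3 and 4 reads, and KRT19, a luminal keratin, had 5 and 6. KRT17, a basal and stress keratin, had 15 and 7 reads, a ratio whose interval includes 1. These 3 were named after their values were seen. 

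Markers of mesenchymal, epithelial, luminal, basal and non-tumour cells were read for this line, described above as mesenchymal. VIM and KRT14 among them are also members of the set. All 6 mesenchymal markers (VIM, FN1, CDH2, ZEB1, AXL and SPARC) were measured, with 1 at least 2-fold higher (SPARC) and 1 lower (CDH2). Over all measured genes these shares were 11.0% and 8.28%. None of the 7 epithelial markers reached 1 FPKM, and together they held 72 and 41 reads. EPCAM had 0 reads in both libraries, CDH1, E-cadherin, had 11 and 2, and GRHL2, an epithelial transcription factor, had 0 and 9. ESRP1 had 25 and 0 reads, CLDN4 had 30 and 27, and CLDN7 and RAB25 had 3 or fewer. The summed level was 0.947 FPKM in scrambled cells and 0.510 in shSIK2 cells, from counts mostly near the floor of 3 reads. Of the 5 luminal markers, 1 was measured, GATA3, a luminal transcription factor, with 11.5 and 18.6 FPKM, 677 and 1099 reads, 1.62-fold higher (1.47 to 1.79). The luminal markers summed to 11.8 and 18.8 FPKM, with ESR1 at 6 and 0 reads and PGR at none. Of the 5 basal markers, KRT14 and EGFR were measured, and the list summed to 27.5 and 24.1 FPKM. The part of these markers in the KRT8 and KRT18 difference was not tested. Leukocyte, endothelial and adipocyte markers were below 1 FPKM throughout, with 22 and 20, 3 and 1, and 3 and 6 reads. In bulk RNA, a change in the number of cells that hold a transcript and a change in the amount per cell cannot be told apart.

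Other intermediate filament genes differed in both directions. SYNM, which encodes synemin, a large filament protein that joins vimentin polymers, had 209 and 538 reads and was 2.57-fold higher (2.19 to 3.03). INA, alpha-internexin of neurons, had 85 and 211 reads and was 2.48-fold higher (1.92 to 3.23). BFSP1, filensin of the eye lens, was 1.52-fold higher (1.24 to 1.86). LMNA, the A-type lamin of the nucleus, stood at 66.9 and 85.5 FPKM, 1.28-fold higher (1.24 to 1.32), and LMNB1 was 1.09-fold higher (1.001 to 1.19). LMNB2, a B-type lamin, stood at 27.95 and 18.2 FPKM, 1.54-fold lower (1.44 to 1.63). With VIM, 7 of the 15 genes in this list were measured, 2 of them at least 2-fold higher and 0 lower (median log2 ratio 0.35). Over all measured genes these shares were 11.0% and 8.28%, with a median of -0.11. PRPH, peripherin of peripheral neurons, had 31 and 16 reads and was 1.94-fold lower (1.03 to 3.79) without reaching the minimum. At equal totals that interval includes 1. NEFH, a neurofilament chain, had 3 and 4 reads, and NEFL, NEFM and DES, desmin, had none. NES, nestin, had 1 and 0 reads. PRPH and the genes after it were named after their values were seen.

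Plakins and related linkers tie filaments to junctions and to the rest of the cytoskeleton. Of the 7 measured linkers, 0 were at least 2-fold higher or lower as deposited, beside 11.0% and 8.28% of all measured genes. Their median log2 ratio was 0.04. At equal totals 1 was 2-fold higher, beside 13.4%. That gene is PLEC, plectin, which links vimentin and keratin filaments to hemidesmosomes and actin, with 12.6 and 23.8 FPKM, 1.89-fold higher (1.81 to 1.96). DST, dystonin, was 1.46-fold higher (1.42 to 1.51), while TCHP, trichoplein, which binds KRT8 and KRT18 filaments, was 1.64-fold lower (1.35 to 2.00). FAM83H, which organises keratin filaments, was 1.16-fold lower (1.002 to 1.34), with a log2 ratio of only -0.07 at equal totals. Of 5 measured desmosome genes, the anchors of keratin at cell contacts, 1 passed 2-fold upward and 0 downward (median 0.00074). Of all measured genes 11.0% and 8.28% did so. The gene that passed was PKP3, plakophilin 3, with 54 and 145 reads, 2.69-fold higher (1.95 to 3.74). PERP, a desmosomal membrane protein, was 1.33-fold higher (1.22 to 1.45). PKP4 and JUP were 1.19-fold (1.07 to 1.33) and 1.11-fold lower, the latter with an interval that includes 1 (0.89 to 1.37). At equal totals the interval of PKP4 also includes 1. DSP, desmoplakin, which attaches keratins to the desmosome, stayed below the minimum with 99 and 103 reads. PPL, periplakin, a linker also below the minimum and named after its values were seen, had 12 and 54 reads and was 4.5-fold higher (2.38 to 9.24). Of the desmosome genes below the minimum, DSC3 had 11 and 0 reads and DSG3 had 0 and 7. DSC3 and DSG3 were also named after their values were seen.

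Of 16 transcription factors known for epithelial and keratin genes, 6 were measured. Of these, 2 were at least 2-fold lower and 0 higher, beside 8.28% and 11.0% of all measured genes. Their median log2 ratio was -0.40, beside -0.11 for all measured genes. The other 4 lay on both sides of even. KLF4, a factor of epidermal differentiation, stood at 25.4 and 8.38 FPKM, 3.04-fold lower, and TFAP2C, an AP-2 factor of epithelia, at 5.51 and 2.11 FPKM, 2.61-fold lower (2.08 to 3.28). KLF5 was 1.68-fold lower (1.39 to 2.03) and CEBPA 1.90-fold higher (1.29 to 2.85). CEBPB was 1.06-fold lower (1.014 to 1.099) and TFAP2A 1.02-fold higher with an interval that includes 1 (0.93 to 1.11), and both log2 ratios were above 0 at equal totals. TP63, the master factor of basal epithelia, had 9 and 3 reads. GRHL1, an epithelial factor below the minimum and named after its values were seen, had 24 and 65 reads and was 2.71-fold higher (1.67 to 4.52). Repressors of epithelial genes were all measured, with a median log2 ratio of 0.42. Of the 6, 2 were at least 2-fold higher and 0 lower, beside 11.0% and 8.28% of all measured genes. At equal totals 3 were higher, beside 13.4%. SNAI1 had 12 and 106 reads, TWIST2 was 2.07-fold higher (1.70 to 2.53) and SNAI2 2.02-fold higher (1.73 to 2.35), the last just under 2-fold with the pseudocount. ZEB2 was 1.81-fold lower (1.66 to 1.97) and ZEB1 stood at 29.6 and 26.1 FPKM.

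Among 18 measured genes for known binders or modifiers of simple keratins or vimentin, 2 passed 2-fold upward and 1 downward (median log2 ratio -0.27). Of all measured genes 11.0% and 8.28% did so, and nothing is read from these counts. SFN, the 14-3-3 sigma protein, which binds KRT17 and KRT18, went from 0 to 243 reads. HSPB1, the small heat shock protein that associates with keratin filaments, stood at 47.3 and 125.7 FPKM, 2.66-fold higher (2.50 to 2.83). PRKCE, a protein kinase C that phosphorylates simple keratins and vimentin, stood at 21.5 and 3.68 FPKM, 5.83-fold lower (5.35 to 6.35).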

How the data were processed

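RNA of 1 scrambled and 1 shSIK2 library of BT549 cells was profiled. Per the labels' protocols, RNA was extracted with Trizol and libraries followed standard Illumina methods. The submitters' processing notes name HISAT2 2.0.5 and build hg18; the sources used here name no counter or annotation. The deposited values are FPKM, per the file headers. Every one of the 58735 gene IDs was found in GENCODE release 29 (GRCh38), the source of symbols, exon lengths and coordinates. FPKM times exon length was a whole multiple of a step of 58.3 in both tables for 100% of values above 0 (tolerance 0.001), and the multiples were taken as reads. The same step in both means that values are not scaled to each total; equal totals multiply shSIK2 by 1.10, a log2 shift of 0.14.

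Log2 ratios are of FPKM plus 0.1, which understates low genes; 2-fold on that scale was the call. Intervals are exact (Clopper-Pearson, 95%) and cover counting error only, since reads lacking molecular identifiers may repeat a molecule. There was no test. Members and lists were chosen with earlier results of these data known. Named were SIK2, the members, other filament genes with at least 1 FPKM, and up to 4 measured genes per list with the largest absolute ratio; others were named after their values were seen. Some items that the rule picks, 1 gene among them, are not reported here. A planned protein comparison is not analysed here. Alternatives were 2 pseudocounts, equal totals, 2 minimums, removal of a GC and length trend (medians in 20 bins each) and pseudogene reads added to the parent. Read recovery, calls, intervals and trend removal were tested on simulated data. Software was Biopython 1.88, matplotlib 3.10.9, scipy 1.17.1, pandas 2.3.3 and numpy 2.4.6 under Python 3.11.15.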

Additional observations from a re-analysis of the deposited data

How the results depend on the processing

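Each of the 10 members kept the direction of its ratio under both other pseudocounts (1 and 0.01 FPKM), at equal totals, and after removal of the GC and length trend, as did KRT8 and KRT18 with pseudogene reads added. With a pseudocount of 1 FPKM the count of members at least 2-fold lower went from 2 to 1 of 9. That of keratin genes went from 2 to 1 of 8, because the ratio of KRT14 shrinks. The share of all measured genes was then 4.83%. With a minimum of 5 FPKM, which KRT33B and KRT14 do not reach, both counts went to 0, beside 7.19%. With no minimum 2 of 10 members and 2 of 23 keratin genes were at least 2-fold higher, KRT8 joining KRT18. Of the 23 keratin genes 5 were lower. KRT16, KRT6A and KRT9 were those added, from 24 and 8, 7 and 0, and 4 and 0 reads. Over all genes with reads, 16.0% were higher and 10.5% lower. Removal of the trend gave 3 lower of 9 members, beside 6.78%. KRT80 was then at a log2 ratio of -1.05, against -0.80 at equal totals and -0.92 with a pseudocount of 1 FPKM. The log2 ratio of KRT8 ranged from 0.54 with pseudogene reads to 2.65 with a pseudocount of 0.01 FPKM. Depth limits KRT8, KRT14, KRT33B, KRT7 and KRT81, each with fewer than 100 reads per library. No paired analysis was possible because each group held 1 library, and no library could be left out.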

Other observations

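Genes of the cornified envelope and of late keratinocytes were almost silent beside the keratins, with 2 of 17 measured and 93 and 127 reads in all, scrambled first. S100A8, a calcium-binding protein of stressed epidermis and myeloid cells, had 12 and 79 reads and was 6.58-fold higher in shSIK2 cells (3.57 to 13.3). Its partner S100A9 had 28 and 15 reads, with a ratio whose interval includes 1 (1.87-fold lower, 0.96 to 3.76). Below the minimum, SBSN had 27 and 8 reads and was 3.38-fold lower (1.49 to 8.60). TGM1 had 20 and 4 reads and was 5-fold lower (1.67 to 20.1). FLG went the other way with 6 and 18 reads, 3-fold higher (1.14 to 9.23), and CALML5 had 0 and 3. SBSN, TGM1, FLG and CALML5 were named after their values were seen.

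AP-1 subunits, which regulate many keratin genes, did not move as 1 group. Of 6 measured, 1 was at least 2-fold higher and 0 lower, beside 11.0% and 8.28% of all measured genes. At equal totals 2 were higher, beside 13.4%. Their median log2 ratio as deposited was -0.15. FOS stood at 0.594 and 5.29 FPKM and JUN at 49.6 and 90.4 FPKM, 1.82-fold higher (1.74 to 1.90). FOSL1 was 1.64-fold lower (1.52 to 1.76) and JUND 1.56-fold lower (1.48 to 1.65).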
